A study of Mus musculus with 10 samples.

Results

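The sirtuins *Sirt1* to *Sirt7* and *Nampt*, 8 of the 55453 genes in the count table, were chosen by name and not by their values, and all 8 had enough counts to be tested. RNA-seq had been performed on whole aortae of 10 male C57BL/6 mice, 5 young (14.5 weeks) and 5 old (92.5 weeks), with 1 library per mouse. No transgene or drug is named for any mouse. The mice were killed at the same time and were perfused with saline, and the fat around the aorta was removed before RNA extraction. Because all cell types of the vessel wall were pooled, fewer cells of a type and less RNA per cell cannot be told apart in any value below.

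Sirtuins remove acetyl and other acyl groups from proteins and consume NAD in each reaction. *Sirt1*, *Sirt6* and *Sirt7* encode mainly nuclear enzymes, *Sirt2* a mainly cytoplasmic one, and *Sirt3*, *Sirt4* and *Sirt5* the mitochondrial ones. *Nampt* encodes nicotinamide phosphoribosyltransferase, which recycles the nicotinamide that sirtuins release and is regarded as the rate-limiting step of NAD salvage. In arteries this pathway has been studied mostly through SIRT1 in endothelial and smooth muscle cells, and the *Nampt* gene is a known output of the circadian clock.

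Neither any of the 7 sirtuins nor *Nampt* passed the threshold used for all genes in the comparison of old with young aortae. At a Benjamini-Hochberg (BH) adjusted p below 0.05, edgeR's quasi-likelihood test called 0 of the 8 genes, whereas 11.5% of the 14614 tested genes were called, 6.48% as higher and 4.99% as lower in old aortae. DESeq2 and limma-voom also called 0 of the 8. At an unadjusted p below 0.05 edgeR found 1 of them, *Nampt*, against 26.7% of all tested genes. The groups overlapped for all 8 genes, and 9.92% of tested genes had groups that did not. The median log2 fold change (old over young) of the 8 genes was 0.13, and that of all tested genes was 0.003. Of the 8 genes 7 lay above 0, beside 7418 of the 14614 tested genes. In absolute size, the median log2 fold change was 0.15 for the 8 genes and 0.14 for all tested genes.

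Each library held between 19640401 and 22886153 counts on genes, and the raw counts of the 8 genes ranged from 127 (*Sirt5*) to 2457 (*Nampt*). Levels below are normalized counts, which are raw counts divided by the size factor of the library. The old aorta numbered replicate 2 stood apart in that genes of the mitochondrial genome took 11.0% of its counts, against 4.50% to 6.51% in the other 9 libraries. It held the highest value of all 10 libraries for 5 of the 8 genes, so that each difference is also given without it. Its part in these differences was not tested. The standard errors (SE) of the 8 log2 fold changes ran from 0.05 to 0.13, and their median of 0.11 compares with 0.10 over all tested genes.

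**Figure D1:**
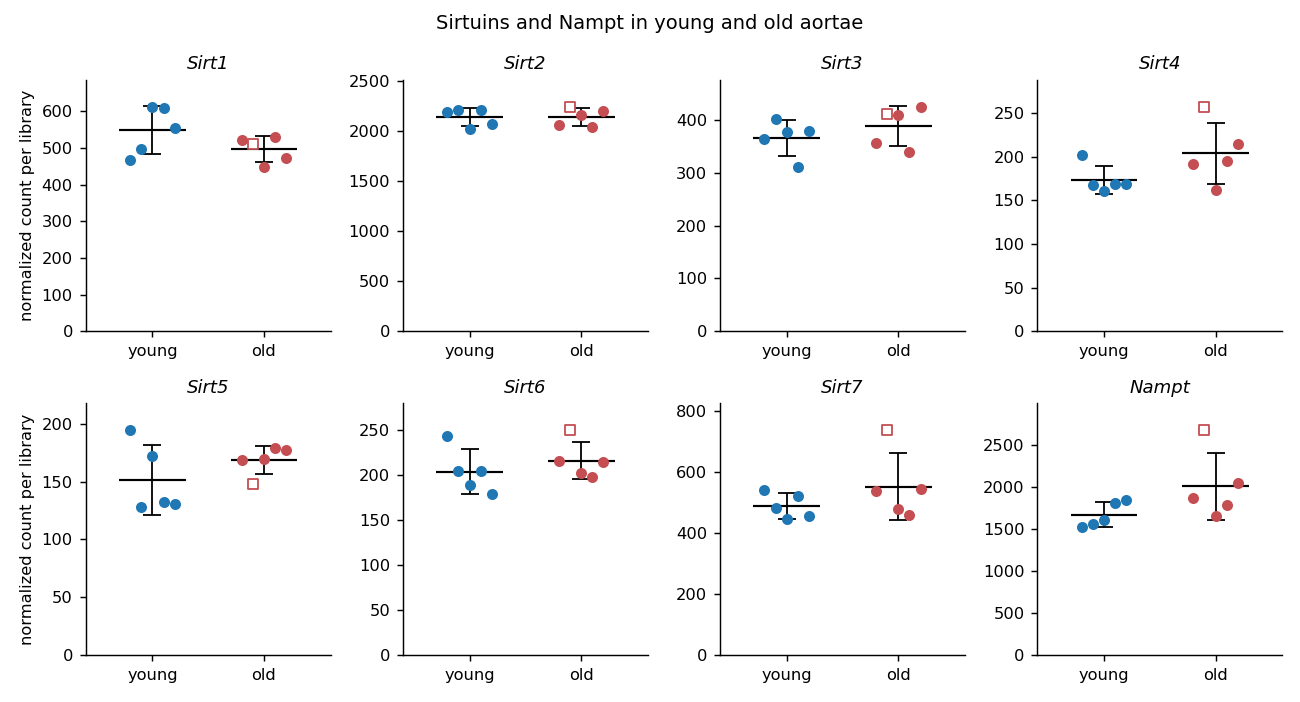
Normalized counts (y axes, each starting at 0) of the 8 genes in 5 young (blue) and 5 old (red) aortae, 1 symbol per mouse in replicate order, with the mean (long bar) and SD (whiskers), and old replicate 2 as an open square. The groups overlap in every panel, and the open square is the highest symbol for *Sirt2*, *Sirt4*, *Sirt6*, *Sirt7* and *Nampt*.

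The promoter sequences of *Nampt*, *Sirt1* and *Sirt2* are shown because *Nampt* and *Sirt2* had the highest counts among the 8 genes, and *Sirt1* was the only one of the 8 with the E-box of the circadian clock in this window. They are RefSeq promoters on GRCm38.p6, from 250 bases before to 50 bases after the start site, written 5′ to 3′ along the strand of the gene. All 8 genes had such a sequence, *Sirt3* and *Sirt6* with 2 start sites each. Capitals mark the E-box CACGTG, the CCAAT box and the GC box core GGGCGG on either strand, and the E-box variant CACGTT was searched in the same way. The *Nampt* window is chr12:32820085-32820384 on the plus strand, the *Sirt1* window chr10:63338986-63339285 on the minus strand and the *Sirt2* window chr7:28766502-28766801 on the plus strand.
Nampt: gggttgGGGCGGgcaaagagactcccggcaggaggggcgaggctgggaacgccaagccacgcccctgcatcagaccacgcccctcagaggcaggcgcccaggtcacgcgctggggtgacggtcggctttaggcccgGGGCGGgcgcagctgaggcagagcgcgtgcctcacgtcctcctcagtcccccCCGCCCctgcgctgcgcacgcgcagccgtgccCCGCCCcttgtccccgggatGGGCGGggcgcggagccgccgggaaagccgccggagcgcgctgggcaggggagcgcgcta
Sirt1: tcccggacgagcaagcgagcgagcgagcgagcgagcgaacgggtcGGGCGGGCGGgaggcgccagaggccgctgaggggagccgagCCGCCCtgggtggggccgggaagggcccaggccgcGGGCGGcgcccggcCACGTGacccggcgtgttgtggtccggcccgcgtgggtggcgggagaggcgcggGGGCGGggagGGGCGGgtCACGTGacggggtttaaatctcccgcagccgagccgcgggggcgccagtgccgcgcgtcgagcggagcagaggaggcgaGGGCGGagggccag
Sirt2: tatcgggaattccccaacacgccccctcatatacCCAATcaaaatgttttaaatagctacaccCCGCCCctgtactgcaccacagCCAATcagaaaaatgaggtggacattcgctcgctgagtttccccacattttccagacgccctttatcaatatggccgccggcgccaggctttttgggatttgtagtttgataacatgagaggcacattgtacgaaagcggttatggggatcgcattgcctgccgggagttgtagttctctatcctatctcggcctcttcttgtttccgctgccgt

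CACGTG, an E-box bound by the clock factors CLOCK and BMAL1, was found at 2 places in the *Sirt1* window, with first bases at -115 and -43 relative to the start site. It was in none of the windows of the other 7 genes, and 7.15% of 32851 RefSeq promoter windows of this length held it. The *Nampt* and *Sirt1* windows lie inside the annotated spans of these genes given below. Annotated start sites further upstream were not searched, so presence or absence of a motif holds for these windows only. CACGTT, found in 4.68% of all windows, was in none of the 8 genes. GGGCGG, the core of the GC box, occurred at 7 places in *Sirt1*, 5 in *Nampt* and 1 in *Sirt2*, and 35.7% of all windows held it. It was also at 4 places in *Sirt3* and at 1 each in *Sirt5*, *Sirt6* and *Sirt7*, so that of the 8 genes only *Sirt4* lacked it. CCAAT was at 2 places in *Sirt2*, at 1 each in *Sirt3* and *Sirt5*, and in none of the other genes, with 37.4% of all windows holding it. These are matches of letters only.

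*Nampt* (chromosome 12, 32819545 to 32853349, GRCm38) had 1527, 1556, 1607, 1813 and 1847 normalized counts in the 5 young aortae and 1876, 2677, 1661, 1783 and 2048 in the 5 old aortae. In 3 old aortae *Nampt* lay above every young aorta, but the rest fell within the young range. Over 5 mice each, the mean and SD were 1670 ± 149 for the young and 2009 ± 399.5 for the old mice. With a log2 fold change of 0.27 (SE 0.12, BH-adjusted p = 0.154, edgeR), *Nampt* had the largest difference of the 8 genes, and its 95% interval ran from 0.02 to 0.53. On the linear scale this is a difference of 20.9%, with an interval from 1.43% to 44.2%. The exact two-sided permutation test of the means gave p = 0.0714, and between 0.119 and 0.976 for the 7 sirtuins, where the smallest p that 5 against 5 mice allow is 0.00794. Without old replicate 2, the log2 fold change was 0.14 (BH-adjusted p = 0.274, edgeR). Of the 1676 genes that were called among all tested genes, 192 (11.46%) had an absolute log2 fold change no larger than that of *Nampt*.

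Of the nuclear sirtuins, *Sirt1* (chromosome 10, 63319005 to 63381704), which deacetylates histones and transcription factors, was the only one of the 8 genes with a lower mean in old aortae. It had 467, 498, 612, 607 and 555 normalized counts in the young mice and 521, 511, 447, 529 and 473 in the old mice. All 5 old values lay below the young mean, yet only 1 of them lay below the lowest young value. Young mice averaged 548 ± 64.7 (SD, n = 5) and old mice 496 ± 34.7 (SD, n = 5). The log2 fold change was -0.14 (SE 0.09, BH-adjusted p = 0.351, edgeR, 95% interval -0.32 to 0.05), which bounds the linear difference between -20.04% and 3.65%. It was negative in all 17 alternative settings, from -0.19 to -0.09, with BH-adjusted p from 0.134 to 0.590 in edgeR, DESeq2 and limma-voom, and it was -0.15 without old replicate 2.

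*Sirt6* (chromosome 10, 81621785 to 81627797), a chromatin deacetylase linked to DNA repair and telomeres, had 243, 204, 188, 205 and 178 normalized counts in the young mice and 216, 249.5, 202, 198 and 214 in the old mice. The 2 groups covered nearly the same range. Its log2 fold change was 0.09 (SE 0.10, BH-adjusted p = 0.638, edgeR, 95% interval -0.14 to 0.32) and 0.03 without old replicate 2. *Sirt7* (chromosome 11, 120618372 to 120625240), which acts at ribosomal DNA and other chromatin, had 542, 482, 444, 519.5 and 455 normalized counts in the young mice and 536, 736, 479, 459 and 543 in the old mice. Apart from old replicate 2, the old values of *Sirt7* reached no further than 543, next to the highest young value of 542. The log2 fold change of *Sirt7* was 0.18 (SE 0.12, BH-adjusted p = 0.362, edgeR, 95% interval -0.07 to 0.43) with all mice and 0.05 without old replicate 2. A stretch of 178 exonic bases of *Sirt7* (3.46%) lies on the same strand as exons of its neighbours *Mafg* and *Mir6936*. Reads there do not belong to *Sirt7* alone, and how they were counted is not known here.

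*Sirt2* (chromosome 7, 28766735 to 28788661), a cytoplasmic deacetylase known for its action on tubulin, was the most abundant sirtuin and the one measured most precisely. It had 2188, 2213, 2016, 2208 and 2071 normalized counts in the young mice and 2061, 2243, 2159, 2038 and 2199 in the old mice. The 10 values lay within a narrow band with no order by age. Young mice averaged 2139 ± 90.05 (SD, n = 5) and old mice 2139.98 ± 88.2 (SD, n = 5), and the coefficient of variation (CV) was 4.21% and 4.12%. Counting error alone would give 2.16% and 2.15%. The log2 fold change was 0.01 (SE 0.05, BH-adjusted p = 0.940, edgeR), and its 95% interval from -0.10 to 0.12 corresponds to a linear difference between -6.88% and 8.67%. Its sign turned without old replicate 2, where the log2 fold change was -0.01, and this was also so when young replicate 3 or young replicate 5 was left out. Of all tested genes, 1.66% had a smaller SE and 3.89% a smaller absolute log2 fold change.

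Among the mitochondrial sirtuins, *Sirt3* (chromosome 7, 140863666 to 140882309), the main deacetylase of mitochondrial proteins, had 363, 402, 377, 311 and 378 normalized counts in the young mice and 356, 412, 408, 339 and 425 in the old mice. In 3 old aortae it was above every young aorta. The log2 fold change was 0.09 (SE 0.09, BH-adjusted p = 0.560, edgeR, 95% interval -0.10 to 0.28) and was 0.07 without old replicate 2. Of the exonic sequence of *Sirt3*, 12.7% lies opposite exons of *Psmd13* and *Ric8a*, so that its value is uncertain if the authors' counting did not use strand. *Sirt4* (chromosome 5, 115478010 to 115484725), which removes lipoyl and other acyl groups and ADP-ribosylates glutamate dehydrogenase, had 201, 167, 161, 169 and 169 normalized counts in the young mice and 192, 257, 162, 195 and 214 in the old mice. In 4 of the 5 old aortae *Sirt4* was above the young mean, and 2 exceeded every young aorta. Its log2 fold change of 0.24 (SE 0.12, BH-adjusted p = 0.232, edgeR, 95% interval -0.02 to 0.51) was the second largest of the 8 genes and was 0.14 without old replicate 2. *Sirt5* (chromosome 13, 43365496 to 43395203), a desuccinylase and demalonylase, had 194, 128, 172, 132 and 130.1 normalized counts in the young mice and 169, 148, 169.6, 179 and 177 in the old mice. Its young values fell into 3 low and 2 high aortae, with a CV of 19.97%, whereas the old aortae had a CV of 7.28%. The log2 fold change of *Sirt5* was 0.16 (SE 0.13, BH-adjusted p = 0.473, edgeR, 95% interval -0.12 to 0.45) and was 0.20 without old replicate 2. Of its 50-base windows, 14.2% also occur in transcripts of other genes, and their share in the counts was not measured.

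**Figure D2:**
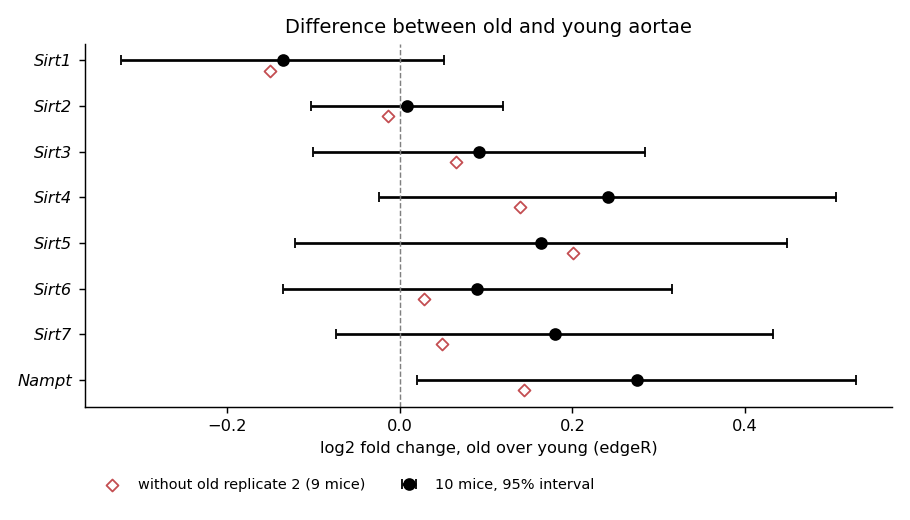
Log2 fold change, old over young (x axis), of the 8 genes from edgeR with all 10 mice (black circles, bars for the 95% interval) and without old replicate 2 (open diamonds). Every interval but that of *Nampt* includes 0, no gene passes after adjustment, and the diamonds of *Sirt3*, *Sirt4*, *Sirt6*, *Sirt7* and *Nampt* lie nearer to 0 than their circles.

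Levels of different genes were compared per kilobase of exonic sequence, with the lengths taken from the annotation. On this scale *Sirt2* was the highest in young aortae, with 425 ± 17.9 normalized counts per kb (SD, n = 5), followed by *Nampt* with 330.4 ± 29.5. Their ranges did not overlap in young aortae but did in old aortae, where *Nampt* reached 397.5 ± 79.1 and *Sirt2* was at 425 ± 17.5. *Nampt* lay above *Sirt1* in all 10 libraries without overlap in either age. *Sirt1* had 103 ± 12.1 normalized counts per kb in young aortae, *Sirt7* 94.9 ± 8.12, *Sirt6* 73.2 ± 8.88, *Sirt4* 72.3 ± 6.69 and *Sirt3* 61.3 ± 5.66. The ranges of neighbours among these 5 overlapped in both ages. Within the same library, *Sirt7* lay above *Sirt6* in all 10 and *Sirt4* above *Sirt3* in 9. *Sirt1* lay above *Sirt7* in 4 libraries and *Sirt6* above *Sirt4* in 5. In old aortae the mean of *Sirt7* (107 ± 21.3) stood above that of *Sirt1* (93.1 ± 6.51) and that of *Sirt4* (85.1 ± 14.6) above that of *Sirt6* (77.5 ± 7.31). *Sirt5* was the lowest, with 24.8 ± 4.96 normalized counts per kb, and was clear of *Sirt3* in all 10 libraries.

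The order below *Sirt2* depends on the length used. When the median length of the protein coding transcripts was used instead, a choice made after the values were seen, *Sirt7* (401 ± 34.3 normalized counts per kb in young aortae), *Nampt* (369 ± 33.0) and *Sirt3* (333 ± 30.7) came next, with overlapping ranges. *Sirt1* (143 ± 16.9), *Sirt6* (122 ± 14.8), *Sirt4* (101 ± 9.32) and *Sirt5* (97.8 ± 19.5) formed the lower end, each overlapping with its neighbour. *Sirt2* made up 49.7% ± 1.17 (SD, n = 5) of the summed sirtuin level per kb of exonic sequence in the young and 48.4% ± 1.87 in the old mice. With the transcript lengths its share was 49.3% ± 1.17 and 47.5% ± 1.75. *Sirt1* took 12.1% ± 1.66 of the exonic scale in young and 10.6% ± 0.991 in old aortae, and *Sirt7* 11.1% ± 0.585 and 12.1% ± 1.56.

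**Figure D3:**
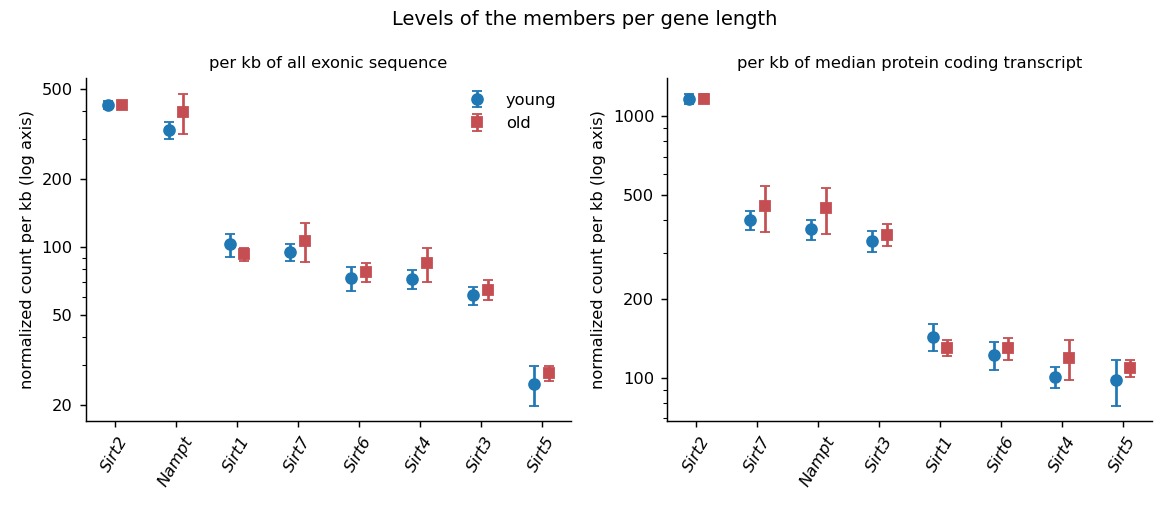
Normalized counts per kb (log axes) of the 8 genes in young (blue circles) and old (red squares) aortae, as mean and SD over 5 mice, divided by all exonic sequence (left) or by the median protein coding transcript (right). *Sirt2* is the highest on both scales, and *Sirt7* and *Sirt3* change places with the others between the scales.

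The 8 genes were compared with each other over the 10 mice after the mean of each age group had been removed. Of 28 pairs, 1 passed adjustment over the pairs, namely *Sirt6* and *Sirt7* (Pearson's r = 0.85, exact permutation within the age groups, p = 0.000556, Benjamini-Hochberg adjusted p = 0.0156). Spearman's rho was 0.87 (exact permutation, p = 0.00118, adjusted p = 0.0331), and r was 0.74 without the 2 mice farthest from the median of *Sirt6* and 0.84 without old replicate 2. *Sirt4* and *Sirt7* had an r just as high, 0.85 (exact permutation, p = 0.0121, adjusted p = 0.113), which was 0.64 without old replicate 2. In all, 5 pairs had an unadjusted p below 0.05 (exact permutation of r), each within *Sirt2*, *Sirt4*, *Sirt6* and *Sirt7*. *Nampt* and *Sirt7* had an r of 0.75 (exact permutation, p = 0.0681, adjusted p = 0.272), which was 0.18 without old replicate 2. *Gm39822* (r = 0.95), *Cox18* (r = 0.95) and *Amigo2* (r = 0.92) were the genes with the highest correlation with *Nampt* over the 10 libraries on the same scale, given here as a description. Without old replicate 2 their r was 0.89, 0.84 and 0.83. *Amigo2* was called lower in old mice (log2 fold change -0.37, SE 0.09, BH-adjusted p = 0.0203, edgeR).

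Genes around the sirtuins and *Nampt* were read from the same fit in 5 lists. Of 18 genes of NAD synthesis 13 were tested, and 1 of them (7.69%) was called, against 11.5% of all tested genes. This was *Nmnat3*, which encodes the mitochondrial enzyme for the last step of NAD salvage. From a mean of 67.0 ± 13.6 normalized counts (SD, n = 5) in the young to 105 ± 20.02 in the old mice, it rose by 0.66 on the log2 scale (SE 0.18, BH-adjusted p = 0.0290, edgeR). Its groups overlapped. The call was lost when young replicate 2, 4 or 5 or old replicate 3 or 5 was left out, with an adjusted p of up to 0.0750. It was also lost with the replicate number as a block (adjusted p = 0.0586, edgeR). *Nadk*, the NAD kinase and the most abundant gene of this list, had 2560 ± 117 normalized counts in the young mice and 2320 ± 70.6 in the old mice (BH-adjusted p = 0.108, edgeR). DESeq2 called *Nadk* lower, with an adjusted p of 0.0432, the only one of 17 alternatives to do so. The median log2 fold change of the list was -0.0009, beside 0.003 for all tested genes.

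Of 24 genes for NAD use, nicotinamide clearance and transport, all were tested. In old aortae 2 were higher and 3 lower (20.8%, against 11.5% of all tested genes, median log2 fold change 0.05). *Nnmt*, which methylates nicotinamide and so removes it from salvage, fell from 602 ± 57.1 to 426 ± 23.6 normalized counts (log2 fold change -0.49, SE 0.07, BH-adjusted p = 0.00121, edgeR). *Aox1*, an aldehyde oxidase that oxidizes methylated nicotinamide, rose from 895 ± 101 to 1271 ± 42.5 (log2 fold change 0.51, SE 0.08, BH-adjusted p = 0.000966, edgeR). Neither *Nnmt* nor *Aox1* overlapped between the ages. *Nt5e*, the ectonucleotidase CD73, fell from 255 ± 110.2 to 107 ± 24.1 (log2 fold change -1.24, SE 0.27, BH-adjusted p = 0.0131, edgeR), also without overlap, and was not called in the fit without the low-count filter (adjusted p = 0.0507, edgeR). *Parp8*, a member of the PARP family, was lower (log2 fold change -0.32, BH-adjusted p = 0.0232, edgeR), but not when young replicate 2 or 4 or old replicate 3, 4 or 5 was left out (adjusted p of up to 0.0648). *Parp2*, a DNA repair polymerase that uses NAD, was higher (0.22, BH-adjusted p = 0.0471, edgeR), a call that 13 of 17 alternatives did not keep, among them the fits without each of the mice but old replicate 1 (adjusted p of up to 0.112). The most abundant uncalled gene was *Tnks2*, a tankyrase, with 2831 ± 198 and 2564 ± 197 normalized counts (BH-adjusted p = 0.223, edgeR).

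Of 24 partners and regulators of sirtuins and *Nampt* 23 were tested. In old aortae 3 were higher and 5 lower (34.8%, against 11.5% of all tested genes, median log2 fold change 0.06). The called genes comprised 6 of the 10 clock genes in the list. The paper had reported several clock genes, among them *Arntl*, *Clock* and *Npas2*, as changed in the same libraries. The share of this list is therefore not independent of that earlier result. *Arntl* (which encodes BMAL1), *Clock* and *Npas2*, the activators of the clock, fell with log2 fold changes of -1.76, -0.54 and -1.84 (BH-adjusted p = 0.00717, 0.00176 and 0.00368, edgeR). *Per3*, *Cry2* and *Nr1d2*, repressors of the clock, rose with log2 fold changes of 1.46, 0.45 and 0.73 (BH-adjusted p = 4.96e-05, 0.0107 and 0.0237, edgeR). The old and young values overlapped for the 4 clock genes that were not called, *Per1*, *Per2*, *Cry1* and *Nr1d1*, and were separate for the 6 called ones. The other called genes of the list were *Ctbp1*, a corepressor (log2 fold change -0.19, BH-adjusted p = 0.0217, edgeR), and *Elavl1*, an RNA-binding protein known to stabilize *Sirt1* mRNA (-0.25, BH-adjusted p = 0.0470, edgeR). The calls of *Elavl1*, *Ctbp1* and *Nr1d2* were lost under 10, 4 and 4 of 17 alternatives. Those of *Ctbp1* and *Nr1d2* were lost without young replicate 4 or old replicate 5, that of *Nr1d2* also without old replicate 3, and that of *Elavl1* without young replicates 2 to 5 or old replicates 2, 3 or 5, each left out singly, with an adjusted p of up to 0.123. The list held 5 called genes when young replicate 4 or old replicate 5 was left out, and 10 with DESeq2. *Nr1d1*, the most abundant gene that was not called, had 3839 ± 1690.0 normalized counts in the young mice and 6093 ± 774 in the old mice (BH-adjusted p = 0.136, edgeR).

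Of 30 genes for known protein substrates of sirtuins 29 were tested. In old aortae 2 were higher and 2 lower (13.8%, against 11.5% of all tested genes, median log2 fold change -0.07). *Foxo1*, a transcription factor deacetylated by SIRT1 and SIRT2, fell from 1846 ± 123 to 1390.1 ± 75.0 normalized counts (log2 fold change -0.40, SE 0.06, BH-adjusted p = 0.00109, edgeR). *Trp53*, which encodes p53, rose from 928 ± 33.97 to 1085 ± 19.8 (log2 fold change 0.23, SE 0.05, BH-adjusted p = 0.00857, edgeR). Neither gene overlapped between the groups. Among targets of mitochondrial sirtuins, *Acadl*, an acyl-CoA dehydrogenase, was lower (log2 fold change -0.28, BH-adjusted p = 0.0288, edgeR). *Sdha*, the most abundant gene that was not called, had a log2 fold change of -0.02 (BH-adjusted p = 0.889, edgeR). *Acadl* was not called without young replicate 4 or 5 or old replicate 1, 2 or 4 (adjusted p of up to 0.0781), nor with upper-quartile factors, library size alone or the replicate block (adjusted p of up to 0.0791). The number of called substrates was 7 without young replicate 1 and 2 without young replicate 4 or young replicate 5.

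The zinc-dependent histone deacetylases, which do not use NAD, served as the nearest enzyme family. All 11 were tested, and 1 was higher and 1 lower (18.2%, median log2 fold change -0.08). Of the 7 sirtuins 0 were called (median 0.09), and of all tested genes 11.5% were called. *Hdac2* fell from 1301 ± 64.9 to 1101 ± 67.3 normalized counts (log2 fold change -0.23, SE 0.06, BH-adjusted p = 0.0216, edgeR). *Hdac11* rose from 741 ± 133 to 966 ± 46.1 (log2 fold change 0.39, SE 0.10, BH-adjusted p = 0.0237, edgeR), with overlapping groups. *Hdac2* was not called without young replicate 3, with library size alone or with the replicate block (adjusted p of up to 0.0618, edgeR). *Hdac11* was not called without young replicate 2, 4 or 5 or old replicate 3 or 5 (adjusted p of up to 0.0674, edgeR). *Hdac5*, the most abundant gene that was not called, had 4208 ± 524 and 3779 ± 304 normalized counts (BH-adjusted p = 0.308, edgeR). The difference between the 2 families was not tested.

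**Figure D4:**
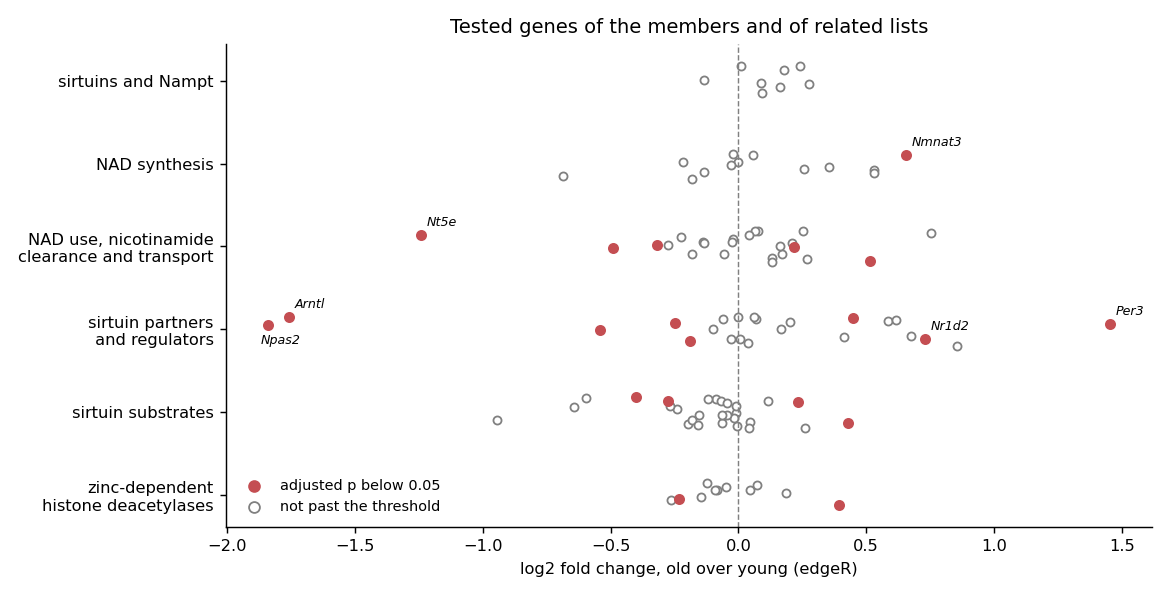
Log2 fold change, old over young (x axis), of each tested gene of the sirtuins and *Nampt* and of 5 related lists (rows, 1 symbol per gene, spread vertically for clarity), with filled symbols for an edgeR adjusted p below 0.05. The 8 genes of the top row are all open symbols between -0.14 and 0.27. The other rows hold 11 to 29 tested genes and at least 1 filled symbol each. Of all tested genes, 11.5% were called, and a difference between the rows was not tested.

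Marker genes of smooth muscle had 736475 to 945758 summed normalized counts per library, the highest of all cell types examined, with 1 of 7 called higher. Over all tested genes, edgeR called 6.48% higher and 4.99% lower. In either direction DESeq2 called 2321 of 27994 genes and limma-voom 1695 of 14614. Of 7 macrophage markers 4 were called higher (7 by DESeq2 and 5 by limma-voom), with 7592 to 10185 summed normalized counts in young and 10151 to 20642 in old aortae. Of 7 endothelial markers 1 was called lower (5 called by DESeq2 and 5 by limma-voom), with 19666 to 33864 and 9886 to 22628. Of 7 fibroblast markers 1 was called higher and 2 lower. Both tested neutrophil markers and both tested T cell markers were called higher, while most markers of these cell types had too few counts to be tested. Of 4 heart muscle markers the 1 tested, *Tnnt2*, was called higher. The others were lower in old aortae in mean normalized counts and were not tested, with *Myh6* at 50.9 ± 69.1 and 3.87 ± 2.05 and *Myl7* and *Nppa* at 0 in all old aortae. The *Myh6* mean of the young aortae came mostly from young replicates 2 and 5, at 161 and 77.9. Among markers of B cells, adipocytes, Schwann cells, skeletal muscle and red blood cells, edgeR called 0, with 4 at an unadjusted p below 0.05, DESeq2 called 1 and limma-voom 0. No marker was at 0 in all libraries. The part of such shifts in the levels of the sirtuins and *Nampt* was not tested.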

How the data were processed

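RNA-seq counts from the aortae of 5 young and 5 old mice were used, with groups taken from the sample labels. The authors filtered reads with fastp 0.20.0, aligned them to GRCm38 with STAR 2.7.0f and counted them per gene with featureCounts of Subread 1.6.4. The deposited counts are whole numbers without normalization for 55453 gene symbols. Libraries were prepared with a stranded mRNA kit, but the strand setting of the counting and the treatment of reads with several alignments are not given in the sources used here. Low counts were removed by the default filterByExpr rule in edgeR 4.0.16, and old and young aortae were compared with the quasi-likelihood F test (robust, TMM scaling, R 4.3.3). The Benjamini-Hochberg adjustment covered all 14614 tested genes, and an adjusted p below 0.05 was a call. Normalized counts used size factors of DESeq2 1.42.0, and the alternatives were DESeq2, limma-voom (limma 3.58.1), other scalings, no filter, a replicate block and each mouse left out. Positions and lengths came from GENCODE M21 on GRCm38 (the authors used M22).

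The 8 genes, the lists and the tests were chosen with earlier results of these data known. The genes named are the 8, every called gene and the most abundant uncalled gene of each list, and the 3 genes most correlated with *Nampt*. Of the called substrate genes, 1 is included in the counts and is not reported by name here. Other genes named, the correlations among the 8 and the lengths of coding transcripts were added after values were seen.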

Additional observations from a re-analysis of the deposited data

Results flagged for a closer look

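Young replicate 1 had 201 normalized counts of *Sirt4*, far from the range of 161 to 169 in the remaining young mice. Old replicate 1 had 2445 normalized counts of *Nadk*, far from the range of 2278 to 2303 in the remaining old mice. Both were identified by Dixon's test at its 95% limit among 33 named genes in 2 groups each, and chance alone gives about 1 in 20 groups.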

How the results depend on the processing

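With each mouse left out in turn, 0 of the 8 genes were called, and the log2 fold changes ranged from -0.19 to -0.09 for *Sirt1*, -0.0137 to 0.0255 for *Sirt2*, 0.04 to 0.14 for *Sirt3*, 0.14 to 0.31 for *Sirt4*, 0.10 to 0.27 for *Sirt5*, 0.03 to 0.16 for *Sirt6*, 0.05 to 0.24 for *Sirt7* and 0.14 to 0.33 for *Nampt*. Of 136 values of the 8 genes under 17 alternatives, 133 kept the direction and 0 were called (smallest adjusted p = 0.0964 in edgeR). The 3 others were *Sirt2*, at -0.0116 without young replicate 3, -0.00763 without young replicate 5 and -0.0137 without old replicate 2. The sign of *Sdha* turned with upper-quartile factors (0.00962), with library size alone (0.00628) and without young replicate 1, in a range of -0.0436 to 0.0237 with 1 mouse left out. Between 1132 (without young replicate 4) and 2367 (without young replicate 1) of all genes were called with 1 mouse left out, against 1676 with all mice. The same ranges were 0 to 1 for NAD synthesis, 3 to 5 for NAD use, 5 to 11 for partners and regulators, 2 to 7 for substrates and 1 to 3 for zinc-dependent deacetylases. DESeq2 called 2 genes of NAD synthesis and 7 substrates, the fit without the low-count filter 3 genes of NAD use, and scaling by library size alone 1 zinc-dependent deacetylase. Of the 20 named genes that were called in the lists, 9 kept the call under all 17 alternatives. The replicate number as a block gave 1261 called genes, 0 in NAD synthesis, 1 among the zinc-dependent deacetylases and 0 of the 8 genes, but same-numbered mice correlated between -0.30 and 0.13 and shared only a number. Of all called genes, 56.5% were higher in old aortae, and this was 63.6% with upper-quartile factors. Counting error alone gives a CV of up to 8.14% for *Sirt5*, the gene with the fewest counts, which limits the differences that could be detected in it.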
